A study of Mus musculus with 180 samples.

Results

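The nuclear-encoded genes of the mitochondrial respiratory chain were followed through 4 populations of mouse blood stem and progenitor cells. They were picked by symbol, as genes of the families Ndufa, Ndufb, Ndufc, Ndufs and Ndufv with a number, Sdha to Sdhd, and all genes whose symbols began with Uqcr, Cox4 to Cox8 or Atp5. Of the 14825 genes listed, 80 fitted this rule. They were 36 genes of complex I, 4 of complex II, 8 of complex III, 15 of complex IV and 17 of complex V. The rule took names only, so it also brought in Atp5s and Atp5sl, which carry the name of ATP synthase but are not among its subunits, and it counted Ndufa4 with complex I, although that protein is now placed in complex IV. Ndufab1, Cyc1, Atpif1 and Usmg5 belong to the chain under other names and are given apart.

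The study asked what becomes of multipotent progenitors (MPP), which lack self-renewal, when they are made to express Hoxb5, a homeobox gene of HSC. CD11b+CD48+SK cells were the donor cells found after transplantation of MPP from mice carrying Mx1-cre and the Rosa LSL-Hoxb5-EGFP/+ allele into lethally irradiated CD45.1+ recipients given pIpC, the inducer of the Mx1 promoter. In these cells the allele expresses Hoxb5 with EGFP once Cre has removed its stop sequence. They were sorted at Week 8 after transplantation as CD45.2+ and EGFP+ cells without lineage markers that were Sca1+, c-kit+, CD48+ and CD11b+. WT-MPP and bone marrow HSC (BM HSC) came from 8-week-old mice and fetal liver HSC (FL HSC) from embryos at Day14.5. These 3 populations had the same Rosa allele and no Cre, and all mice were on the C57BL/6 background. The populations thus held no MPP that had been transplanted without Hoxb5. The transplant, the host, pIpC, Cre and the induced gene cannot be told apart in any comparison with the CD11b+CD48+SK cells. The sort gates differed as well. The paper defines MPP as CD48- cells without lineage markers, CD11b among them, that were Sca1+, c-kit+, CD150- and CD135+. The label for tissue gives bone marrow for every cell, FL HSC included, while the other labels and the paper place the FL HSC in fetal liver. The paper defines them as CD45.2+ cells without lineage markers that were Sca1+, c-kit+, CD11b+ and CD150+. They were thus selected for CD11b, as were the CD11b+CD48+SK cells.

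Each cell was 1 library, with 47 CD11b+CD48+SK cells, 41 WT-MPP, 36 BM HSC and 56 FL HSC. The deposited values were TPM, an estimate of transcripts that is scaled for gene length and to the same sum in each cell. The cells were not assigned to animals, so a whole population stood as 1 sample and could not be tested against another, and a difference was called by size alone, where the mean of log2(TPM + 1) over cells differed by at least 1. The share of all 10856 genes kept that passed the same limit is the background against which a count is read. Genes detected per cell, at a TPM of 1 or more, numbered at the median 4514 in CD11b+CD48+SK cells, 4441.5 in BM HSC, 5206.5 in FL HSC and 3844 in WT-MPP. The populations with fewer genes detected may stand on thinner data, but depth per cell cannot be had from TPM. Hoxb5 was detected in 43 of 47 CD11b+CD48+SK cells, 8 of 36 BM HSC, 32 of 56 FL HSC and 7 of 41 WT-MPP. Cd48 was detected in 47 of 47 CD11b+CD48+SK cells but Itgam, which encodes CD11b, in only 17 of them.

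The respiratory chain sits in the inner mitochondrial membrane. Complex I takes electrons from NADH and complex II from succinate, ubiquinone carries them to complex III, and cytochrome c carries them on to complex IV, which passes them to oxygen. The protons pumped on the way drive ATP synthase, or complex V. A few core subunits are encoded in mitochondrial DNA, none of which was listed here, and the rest are encoded in the nucleus and imported. Adult HSC are known for quiescence and for a metabolism that leans on glycolysis, whereas dividing fetal HSC and progenitors draw more on respiration.

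Respiratory chain transcripts made up a larger part of the transcriptome in CD11b+CD48+SK cells than in the adult populations. The 80 genes together took 3.07% of a cell's TPM in the lowest CD11b+CD48+SK cell, 4.53% at the median and 6.71% in the highest. In WT-MPP the corresponding values were 2.51%, 3.30% and 7.43%, and in BM HSC they were 2.24%, 3.19% and 4.41%. FL HSC stood between the CD11b+CD48+SK cells and the adult cells, at 2.86%, 3.98% and 4.98%. The ranges of all populations overlapped, yet 45 of 47 CD11b+CD48+SK cells lay above the WT-MPP median and 46 above the BM HSC median. By contrast, no BM HSC reached the CD11b+CD48+SK median. A single WT-MPP cell at 7.43% stood far above the next WT-MPP cell at 5.26%, and without it the WT-MPP mean moved from 3.55% to 3.46%. The mean share was 4.50% ± 0.662 (SD over 47 cells) in CD11b+CD48+SK cells, 3.26% ± 0.557 in BM HSC, 3.99% ± 0.483 in FL HSC and 3.55% ± 0.922 in WT-MPP. These SDs are between cells and say nothing of the spread between animals. Mean shares were 1.27 times as high in CD11b+CD48+SK cells as in WT-MPP, 1.38 times as high as in BM HSC and 1.13 times as high as in FL HSC.

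**Figure D1:**
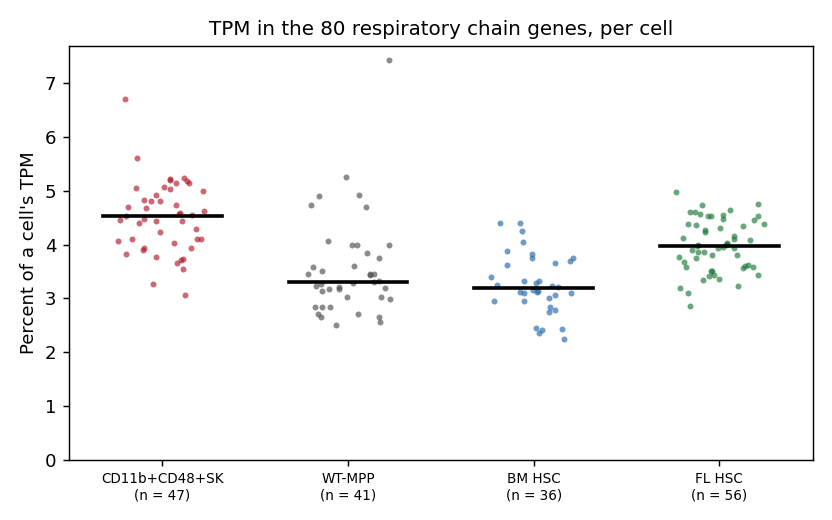
Percent of each cell's TPM taken by the 80 respiratory chain genes (vertical axis), with 1 point per cell, 1 column per population and a black bar at the median. The medians run from 4.53% in CD11b+CD48+SK cells through 3.98% in FL HSC to 3.30% in WT-MPP and 3.19% in BM HSC, with 1 WT-MPP cell at 7.43%.

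The complexes did not differ by the same factor. Compared with WT-MPP, the mean share of complex IV in CD11b+CD48+SK cells was 1.43 times as high and that of complex V 1.38 times, but complex I was 1.19 times, complex II 1.22 times and complex III 1.01 times as high. Against BM HSC complex IV again had the largest ratio, 1.54, followed by complex V at 1.45, and complex III the smallest, 1.19. Against FL HSC complex IV was 1.24 times as high in CD11b+CD48+SK cells and complex II was 0.959 times as high. By medians over cells, the ratios to WT-MPP were 1.54 for complex IV, 1.46 for complex V, 1.25 for complex III, 1.24 for complex II and 1.21 for complex I, so that complexes IV and V kept the upper places but complex I took the lowest.

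The balance of complex IV over complex III was also taken within each cell, where the scaling of the cell drops out. This pair was picked for having the largest and the smallest ratio of mean shares in the same cells, and its values are a description of that difference cell by cell. Complex III, the cytochrome bc1 complex, feeds cytochrome c, and complex IV, cytochrome c oxidase, spends it. The summed TPM of complex IV over that of complex III was 1.43 in the lowest CD11b+CD48+SK cell, 2.30 at the median and 3.33 in the highest. WT-MPP had 0.756, 1.64 and 4.38, BM HSC had 1.11, 1.78 and 3.13, and FL HSC had 1.41, 1.88 and 2.50. The populations overlapped in range, and 46 of 47 CD11b+CD48+SK cells lay above the WT-MPP median, 44 above the BM HSC median and 42 above the FL HSC median. Of the FL HSC, 7 of 56 lay above the CD11b+CD48+SK median. The mean ratio was 2.31 ± 0.360 (SD over 47 cells) in CD11b+CD48+SK cells, 1.85 ± 0.503 in BM HSC, 1.90 ± 0.274 in FL HSC and 1.80 ± 0.628 in WT-MPP. Complex V over complex III had medians of 2.71 in CD11b+CD48+SK cells, 2.23 in BM HSC, 2.47 in FL HSC and 2.20 in WT-MPP, and complex I over complex III of 3.58, 3.14, 3.09 and 3.30 in the same order. Complex IV over complex V had medians of 0.873, 0.750, 0.761 and 0.762. Each of these ratios was highest in CD11b+CD48+SK cells at the median, whereas complex I over complex V was highest in WT-MPP (1.51) and lowest in FL HSC (1.25).

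**Figure D2:**
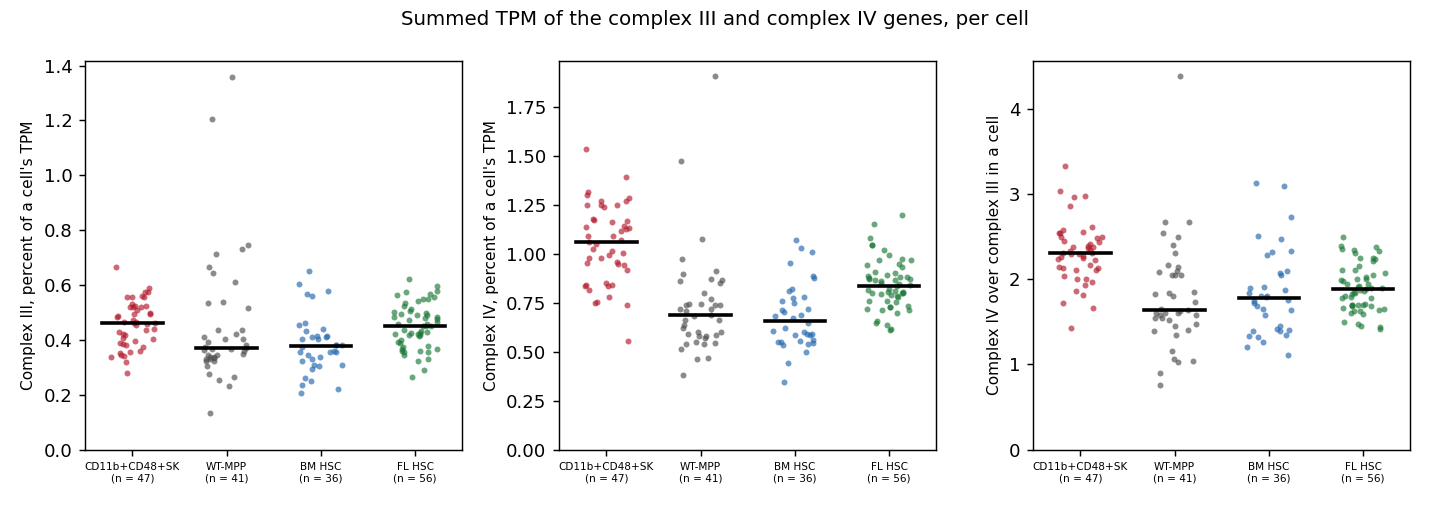
Summed TPM of the 8 complex III genes (left) and the 15 complex IV genes (middle) as percent of a cell's TPM, and the ratio of complex IV to complex III within a cell (right), with 1 point per cell and black bars at the medians. The median ratio is 2.30 in CD11b+CD48+SK cells and 1.64, 1.78 and 1.88 in WT-MPP, BM HSC and FL HSC.

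Gene by gene, most members were higher in CD11b+CD48+SK cells against WT-MPP. On the scale of mean log2(TPM + 1), 78 of 80 genes were above WT-MPP, with a median difference of 0.95, against 0.21 for all genes kept. Of the 80, 36 were higher by at least 1 and none was lower by as much, where 19% of all genes kept were higher and 5.01% lower. Against BM HSC, 30 members were higher and 1 lower (13.4% and 11.8% of all genes kept), with a median difference of 0.78, against a value of -0.001 for all genes kept. Against FL HSC only 1 member was higher and 4 were lower (4.02% and 20.9% of all genes kept), with a median of 0.0066 against -0.32. FL HSC themselves were higher than BM HSC in 29 members and lower in none (25.6% and 5.44% of all genes kept), with a median of 0.81 against 0.31, and higher than WT-MPP in 38 and lower in none (33.9% and 3.08%), with a median of 0.92 against 0.56. Among the 5249 genes detected in 50% or more of the cells of any population, FL HSC no longer exceeded the background in counts. There 37 of 77 members (48.1%) were higher than in WT-MPP (56.1% of the 5249), with a median of 0.93 against 1.18. Against BM HSC 29 (37.7%) were higher (43.2%), with a median of 0.87 against 0.78. In CD11b+CD48+SK cells 36 of the 77 were higher than in WT-MPP (33.1%) and 30 higher than in BM HSC (23.1%). Between WT-MPP and BM HSC, 8 members differed by at least 1 in either direction (17.2% of all genes kept), with a median of -0.09 against -0.22. The comparisons share populations, so their values are not independent of each other.

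**Figure D3:**
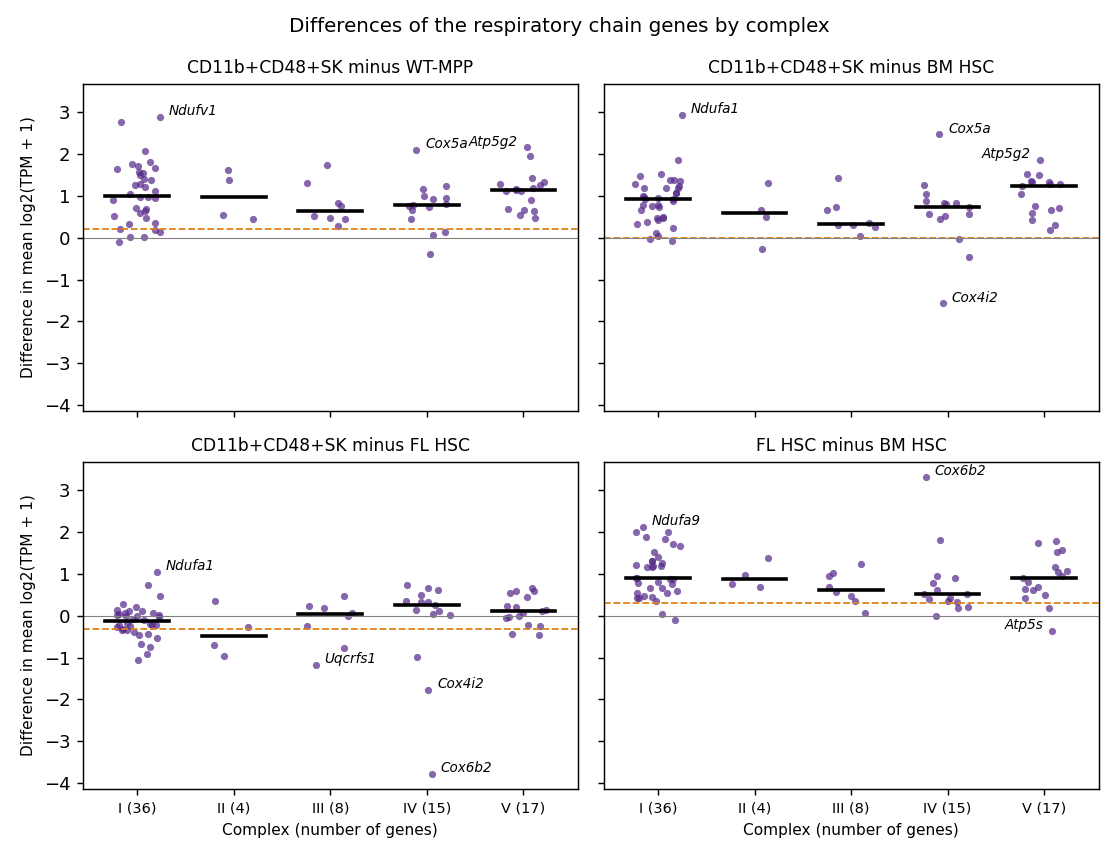
Difference in mean log2(TPM + 1) of each respiratory chain gene (vertical axis), by complex, in 4 comparisons; each point is 1 gene, black bars are medians of a complex and the dashed line is the median of all 10856 genes kept. The points lie mostly above the dashed line against WT-MPP and BM HSC, with Cox6b2 far below it against FL HSC, and Cox4i2 is listed at 0 in every CD11b+CD48+SK cell.

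The size of these differences, and the sign of some medians, rested on how cells were averaged and scaled. Ratios of mean TPM in CD11b+CD48+SK cells to that in WT-MPP had a median of 1.23 over 79 members, with 64 above 1 and 15 below, and on that scale, as log2 of the mean TPM + 1, 3 members were higher by at least 1 and 1 lower (10.3% and 24.1% of all genes kept). Values under a TPM of 1 made up 6.97% of all member values in CD11b+CD48+SK cells, 9.76% in BM HSC, 4.96% in FL HSC and 11.5% in WT-MPP, and such values weigh more in a mean of logs than in a mean of TPM. When cells were scaled by the median ratio of their genes to the mean cell, the median of all genes moved from 0.21 to -0.06 and that of the members from 0.95 to -0.0035, with 7 higher and 1 lower (10.5% and 12.8% of all genes kept). The same scaling left 6 higher and 1 lower against BM HSC (9.51% and 16.8% of all genes kept). Between FL HSC and BM HSC it left 9 higher and none lower (16.4% and 10.6%), and between FL HSC and WT-MPP 10 higher and 8 lower (20.4% and 9.68%). In the last of these the median of the members changed sign, from 0.92 to -0.23, against 0.16 for all genes kept. In all of these comparisons the scaled members were higher by at least 1 no more often than genes at large. Among cells with 3500 to 5500 genes, 17 members were higher than in WT-MPP (12.9% of all genes kept), with a median of 0.61 against 0.04 for all genes. Highly detected genes also differed more in general, since the 710 genes found in 90% or more of the cells in each of the populations had a median of 0.60 against WT-MPP, and the 57 members among them one of 0.80, with 21 higher by at least 1 (29.4% of the 710).

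Complex I, NADH dehydrogenase, held the largest differences from WT-MPP. Of its 36 genes, 18 were higher in CD11b+CD48+SK cells against WT-MPP, with a median difference of 1.0, and 15 were higher than in BM HSC (19% and 13.4% of all genes kept). The nuclear core subunits, which carry the electrons from NADH towards ubiquinone, were uneven. Ndufv1, the NADH-binding flavoprotein, had a median of 152 TPM over CD11b+CD48+SK cells (lowest 0, highest 505), 135 TPM over BM HSC (0 to 690), 138 TPM over FL HSC (0 to 588) and 1.49 TPM over WT-MPP (0 to 617). WT-MPP was thus the low population, Ndufv1 being detected in 25 of 41 of its cells against 42 of 47 CD11b+CD48+SK cells, 51 of 56 FL HSC and 28 of 36 BM HSC. The WT-MPP median depended on the cells taken, since it was 15.3 TPM in the 30 WT-MPP with 3500 to 5500 genes, of which 20 had Ndufv1, against 153, 147 and 125 TPM in such CD11b+CD48+SK cells, BM HSC and FL HSC. In mean log2(TPM + 1), CD11b+CD48+SK cells were 2.88 and FL HSC 3.10 above WT-MPP, while mean TPM was 182 in CD11b+CD48+SK cells and 102 in WT-MPP. Ndufs3 and Ndufs7, which form part of the arm that hands electrons to ubiquinone, were 1.76 and 1.10 above WT-MPP in CD11b+CD48+SK cells. Ndufv2, Ndufs8 and Ndufs1 were 0.22, 0.36 and 0.02 above it on the log2 scale. The mean TPM of these 3 genes was lower than in WT-MPP, at 0.905, 0.971 and 0.586 times its value.

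Among the supernumerary subunits, Ndufa1, a small membrane subunit encoded on the X chromosome (GRCm38), had the largest difference from BM HSC. Its median was 481 TPM in CD11b+CD48+SK cells (lowest 1.38, highest 1773), 151 TPM in BM HSC (0 to 844), 225 TPM in FL HSC (0 to 567) and 211 TPM in WT-MPP (0 to 1034). CD11b+CD48+SK cells were highest at the median with overlapping ranges, and the differences in mean log2(TPM + 1) were 2.93 from BM HSC, 1.71 from WT-MPP and 1.05 from FL HSC. Ndufa1 was the only one of the 80 genes that was higher than in FL HSC by at least 1. Ndufa10 resembled Ndufv1, with medians of 242 TPM in CD11b+CD48+SK cells, 170 TPM in BM HSC, 258 TPM in FL HSC and 2.92 TPM in WT-MPP, and detection in 25 of 41 WT-MPP. Among cells with 3500 to 5500 genes its WT-MPP median was 104 TPM, against 252, 188 and 261 TPM in CD11b+CD48+SK cells, BM HSC and FL HSC. Ndufb5 was 2.06 above WT-MPP in CD11b+CD48+SK cells and 1.99 above BM HSC in FL HSC, and its exons overlap those of Mrpl47, so that reads may have been shared between them. Ndufa9, which sits at the joint of the membrane and peripheral arms, was 1.86 above BM HSC in CD11b+CD48+SK cells and 2.13 above BM HSC in FL HSC. Ndufs5 was the complex I gene that was lower than in FL HSC by at least 1, with a median of 111 TPM there and of 52.4, 35 and 34.9 TPM in CD11b+CD48+SK cells, WT-MPP and BM HSC. Its difference of CD11b+CD48+SK cells from FL HSC was -1.05. Ndufv3 and Ndufs4 had differences of -0.10 and 0.02 from WT-MPP, and mean TPM 0.869 and 0.665 times as high. Ndufa4 was the third most abundant of the 80 genes by mean TPM over all cells, with a median of 1743 TPM in CD11b+CD48+SK cells (lowest 621, highest 4157), 773 TPM in BM HSC (163 to 2434), 1060 TPM in FL HSC (418 to 1690) and 790 TPM in WT-MPP (8.22 to 2901).

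Complex II, succinate dehydrogenase, has 4 subunits, all encoded in the nucleus, and also works in the citric acid cycle. Sdhb, the iron-sulfur subunit, had a median of 666 TPM in CD11b+CD48+SK cells, 404 TPM in BM HSC, 495 TPM in FL HSC and 412 TPM in WT-MPP, and was 1.38 above WT-MPP and 1.31 above BM HSC on the log2 scale. Sdhd, a membrane anchor, was 1.62 above WT-MPP. Sdhc, the other anchor, was 0.54 above WT-MPP, but its mean TPM was 0.936 times that of WT-MPP. FL HSC were 1.37 above BM HSC in Sdhc. Sdha, the catalytic flavoprotein, went the other way against the stem cell populations, with medians of 145 TPM in CD11b+CD48+SK cells, 250 TPM in BM HSC, 223 TPM in FL HSC and 149 TPM in WT-MPP. Its difference in mean log2(TPM + 1) was -0.27 from BM HSC and -0.96 from FL HSC, neither past the limit. The subunits of 1 complex thus did not share a pattern.

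Complex III had the smallest median differences from WT-MPP and BM HSC, 0.64 and 0.33. Of its 8 genes, 2 were higher in CD11b+CD48+SK cells against WT-MPP and 1 higher than in BM HSC, near the shares of all genes kept (19% and 13.4%). Uqcrq, a small subunit, had a median of 471 TPM in CD11b+CD48+SK cells, 306 TPM in BM HSC, 319 TPM in FL HSC and 179 TPM in WT-MPP, and was 1.74 above WT-MPP and 1.43 above BM HSC. Uqcrfs1, the Rieske iron-sulfur protein, was highest in FL HSC with a median of 319 TPM, against 214, 179 and 210 TPM in CD11b+CD48+SK cells, WT-MPP and BM HSC. In CD11b+CD48+SK cells it was 1.3 above WT-MPP and had a difference of -1.18 from FL HSC. The structural core proteins Uqcrc1 and Uqcrc2 were 0.28 and 0.75 above WT-MPP on the log2 scale, while their mean TPM was lower in CD11b+CD48+SK cells (546 and 266) than in WT-MPP (764 and 317). For these genes the direction depended on whether logs or TPM were averaged. Uqcrh, Uqcrb and Uqcr11 were 0.45, 0.47 and 0.52 above WT-MPP, with mean TPM 1.01, 0.909 and 1.07 times as high. The direction thus depended on the average for Uqcrb too, the most abundant of the complex by mean TPM over all cells.

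Complex IV genes were among the most abundant of the chain, and Cox4i1, Cox6a1, Cox6b1 and Cox8a, 4 of the 10 most abundant members, were above WT-MPP in CD11b+CD48+SK cells by both averages. Cox4i1, the main form of the regulatory subunit 4, had a median of 1618 TPM in CD11b+CD48+SK cells (lowest 85.9, highest 2843), 1168 TPM in BM HSC (9.06 to 2148), 1293 TPM in FL HSC (625 to 2506) and 990 TPM in WT-MPP (12.3 to 2944). Of the 15 genes of the complex, however, only 3 were higher than in WT-MPP by at least 1 and 3 higher than in BM HSC, again near 19% and 13.4% of all genes kept. The mean TPM of Cox4i1 was 1.57 times that of WT-MPP, and its difference in mean log2(TPM + 1) was 0.99. Cox8a, Cox6c and Cox6a1, small subunits around the core, had mean TPM 1.63, 1.58 and 1.49 times those of WT-MPP. Cox5a, a subunit on the matrix side, had the largest log2 difference of the complex, 2.1 from WT-MPP and 2.47 from BM HSC. Its median was 738 TPM in CD11b+CD48+SK cells (lowest 8.11, highest 1803), 290 TPM in BM HSC (0 to 1186), 463 TPM in FL HSC (69.2 to 788) and 369 TPM in WT-MPP (0 to 3275). Cox7a2l, a factor that joins complexes III and IV into supercomplexes, had medians of 451 TPM in CD11b+CD48+SK cells, 523 TPM in BM HSC, 747 TPM in FL HSC and 532 TPM in WT-MPP. Cox7a2l took 47.6% of the summed TPM of Cox7a2 and Cox7a2l in CD11b+CD48+SK cells, 56% in BM HSC, 63.2% in FL HSC and 60.6% in WT-MPP (means over cells).

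Several complex IV subunits exist as a main form and as a form restricted to certain tissues, and Cox6b2, one of the restricted forms, had the largest difference of the 80 genes in each comparison with FL HSC. Cox6b2, known as a form of testis and sperm, was detected in 53 of 56 FL HSC (94.6%, 95% exact Clopper-Pearson interval 85.1 to 98.9%). It was detected in 18 of 36 BM HSC (50%, 32.9 to 67.1%), 21 of 47 CD11b+CD48+SK cells (44.7%, 30.2 to 59.9%) and 13 of 41 WT-MPP (31.7%, 18.1 to 48.1%). The intervals cover the counting of cells only. The median was 135 TPM in FL HSC (lowest 0, highest 436), 0.526 TPM in BM HSC (0 to 491) and 0 TPM in CD11b+CD48+SK cells and WT-MPP, whose highest cells had 423 and 442 TPM. Among cells with the transcript, the median was 133 TPM in BM HSC, 138 TPM in FL HSC, 93.8 TPM in CD11b+CD48+SK cells and 109 TPM in WT-MPP. FL HSC were 4.70 above WT-MPP and 3.32 above BM HSC in mean log2(TPM + 1), and the difference of CD11b+CD48+SK cells from FL HSC was -3.78. Among cells with 3500 to 5500 genes, Cox6b2 was detected in 36 of 39 FL HSC, 13 of 27 BM HSC, 16 of 40 CD11b+CD48+SK cells and 11 of 30 WT-MPP. Cox6b1, the main form, was detected in every cell, with medians of 1312 TPM in CD11b+CD48+SK cells, 809 TPM in BM HSC, 1017 TPM in FL HSC and 857 TPM in WT-MPP. Cox6b2 took on average 14% of the summed TPM of both forms in FL HSC and 4.74% in CD11b+CD48+SK cells.

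Cox4i2, a form of subunit 4 known from lung and from cells in low oxygen, was detected in 22 of 56 FL HSC (39.3%, 26.5 to 53.2%), in 3 of 41 WT-MPP (7.32%, 1.54 to 19.9%) and in 11 of 36 BM HSC (30.6%, 16.3 to 48.1%). It was detected in 0 of 47 CD11b+CD48+SK cells, a count that allows a share of up to 6.38% if 3 cells are taken as the floor and 7.55% by the exact interval, and was listed at 0 in each of them. Where it was present it was low, the highest cell having 325 TPM among BM HSC and 196 TPM among FL HSC, against a median of 990 TPM or more of Cox4i1 in every population. Among cells with 3500 to 5500 genes it was found in 12 of 39 FL HSC, 7 of 27 BM HSC, 2 of 30 WT-MPP and 0 of 40 CD11b+CD48+SK cells. Both Cox4i2 and Cox6b2 were detected in 20 FL HSC, 8 BM HSC, 2 WT-MPP and 0 CD11b+CD48+SK cells. Cox6a2, a form of heart and skeletal muscle, was detected in 6 of 47 CD11b+CD48+SK cells (12.8%, 4.83 to 25.7%), of which the highest had 142 TPM, and in 0 cells of the other populations. Its exons overlap those of Itgad, an integrin gene of leukocytes, and without strand the reads of the 2 genes cannot be told apart. Cox7a1, also a form of muscle, was detected in 4 CD11b+CD48+SK cells, 3 WT-MPP, 0 BM HSC and 6 FL HSC.

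**Figure D4:**
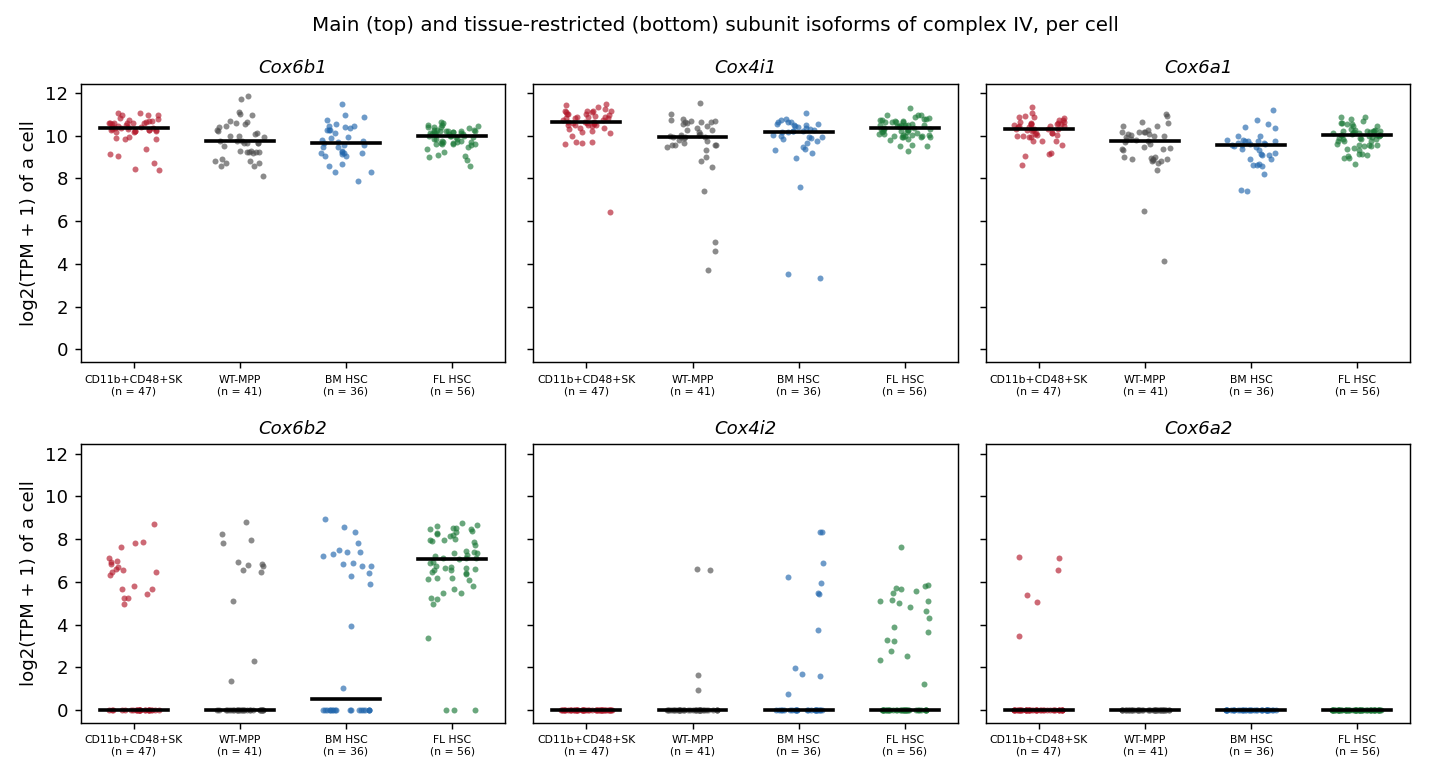
log2(TPM + 1) per cell of the main forms Cox6b1, Cox4i1 and Cox6a1 (top) and of the tissue-restricted forms Cox6b2, Cox4i2 and Cox6a2 (bottom), with 1 point per cell and black bars at the medians. Cox6b2 is detected in 53 of 56 FL HSC and in 21 of 47 CD11b+CD48+SK cells, Cox4i2 in no CD11b+CD48+SK cell, and Cox6a2 in 6 CD11b+CD48+SK cells and in no cell of the other populations.

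Complex V had the largest median difference of the complexes, 1.13 from WT-MPP and 1.23 from BM HSC. Of its 17 genes, 11 and 10 were higher by at least 1 in these comparisons (19% and 13.4% of all genes kept), and none passed the limit against FL HSC. The subunits of the catalytic head differed among themselves. Atp5b, the catalytic beta subunit and the most abundant of the 80 genes, had a median of 1739 TPM in CD11b+CD48+SK cells (lowest 325, highest 3025), 1238 TPM in BM HSC (15.6 to 2580), 1866 TPM in FL HSC (885 to 4067) and 1306 TPM in WT-MPP (30.1 to 2790). The alpha subunit Atp5a1 was highest in FL HSC as well, with a median of 858 TPM against 686, 673 and 748 TPM in CD11b+CD48+SK cells, WT-MPP and BM HSC. The central stalk subunits Atp5c1, Atp5d and Atp5e were 1.13, 1.96 and 1.43 above WT-MPP in CD11b+CD48+SK cells. Atp5e had a median of 954 TPM in CD11b+CD48+SK cells (lowest 292, highest 2188), 464 TPM in BM HSC (0 to 1095), 620 TPM in FL HSC (251 to 1047) and 397 TPM in WT-MPP (2.23 to 3057), and its mean TPM was 2.05 times that of WT-MPP. The peripheral stalk subunits Atp5o, Atp5f1 and Atp5h, which hold the head in place, were 1.11, 1.13 and 0.66 above WT-MPP.

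Atp5g1, Atp5g2 and Atp5g3 encode the same mature c subunit, the ring that turns in the membrane, with different targeting peptides. Atp5g2 had a median of 543 TPM in CD11b+CD48+SK cells (lowest 171, highest 2461), 279 TPM in BM HSC (0 to 655), 494 TPM in FL HSC (164 to 1046) and 258 TPM in WT-MPP (0 to 972). It was 2.16 above WT-MPP and 1.87 above BM HSC in CD11b+CD48+SK cells and 1.73 above BM HSC in FL HSC. Atp5g3 was the main gene in all populations, with 49.6%, 49.6%, 56.9% and 50.6% of the summed TPM of the 3 genes in CD11b+CD48+SK cells, WT-MPP, BM HSC and FL HSC. Atp5g2 took 26.4% ± 8.57 (SD over cells) in CD11b+CD48+SK cells and 26.7% ± 9.91 in FL HSC, against 20.3% ± 16.2 in WT-MPP and 21.1% ± 16.7 in BM HSC, gaps that were smaller than the SD between cells. These genes are alike in their coding part and have processed copies, so reads may have been divided between them. Atp5s and Atp5sl were detected in 28 and 32 of 47 CD11b+CD48+SK cells and in 16 and 19 of 41 WT-MPP. Atp5s was 1.27 above WT-MPP in mean log2(TPM + 1), but its mean TPM was 63.9 in CD11b+CD48+SK cells and 68.9 in WT-MPP.

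Chain subunits named otherwise were in the same direction. Cyc1, the cytochrome c1 of complex III, was 1.66 above WT-MPP in CD11b+CD48+SK cells and 1.45 above BM HSC in FL HSC, and Ndufab1, Atpif1 and Usmg5 were 0.29, 0.49 and 0.79 above WT-MPP. Of the 76 mitochondrial ribosomal proteins, which make the subunits encoded in mitochondrial DNA, 58 were higher in CD11b+CD48+SK cells against WT-MPP and none lower (19% and 5.01% of all genes kept), with a median of 1.48, and 60 were higher in FL HSC than in BM HSC (25.6% of all genes kept), with a median of 1.63. Against FL HSC, 16 of the 76 were lower in CD11b+CD48+SK cells and none higher, as were 20.9% of all genes kept. Protein import genes had 16 of 22 higher than in WT-MPP with a median of 1.36, and assembly factors had 16 of 44 with a median of 0.83. The background was 19% of all genes kept. Among the 5249 genes detected in 50% or more of the cells of any population it was 33.1%, near the count of the assembly factors. The summed TPM of the assembly factors was nonetheless lower, with means of 3051 TPM in CD11b+CD48+SK cells and 3347 TPM in WT-MPP. For them the direction depended on the average. Mean sums of protein import genes (3651 and 3021 TPM) and mitochondrial ribosomal proteins (12945 and 10829 TPM) were higher in CD11b+CD48+SK cells. Tmem70, an assembly factor of ATP synthase, was 2.44 above WT-MPP and was detected in 95.7% of CD11b+CD48+SK cells and 68.3% of WT-MPP. Cox15, which makes the heme of complex IV, had a value of -0.73.

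Of the genes that supply the chain, 7 of 12 electron carrier and ubiquinone genes were above WT-MPP by at least 1 in CD11b+CD48+SK cells, with a median of 1.02. So were 5 of 14 citric acid cycle genes, with a median of 0.87. The background was 19% of all genes kept and 33.1% of the 5249 genes detected in 50% or more of the cells of any population. The citric acid cycle count was near the latter. Mean summed TPM of the electron carrier and ubiquinone genes was 667 in CD11b+CD48+SK cells and 610 in WT-MPP. For the citric acid cycle the mean sums were 3408 and 3325 TPM, but the medians were 3321 and 3449 TPM. Coq6, a ubiquinone synthesis enzyme, was 3.59 above WT-MPP and was detected in 66.0% and 7.32% of the cells. Idh3a, of isocitrate dehydrogenase, was 1.93 above WT-MPP, while Cs, citrate synthase, had a value of -0.23. Ucp2, an inner membrane carrier of the uncoupling protein family, was 2.02 above WT-MPP and 2.63 above BM HSC, and 3 of the 7 uncoupling and superoxide genes were higher than in WT-MPP. For mitochondrial DNA upkeep and transcription, 3 of 13 genes were higher than in WT-MPP, near the background of 19%. Between FL HSC and BM HSC 7 of 13 were higher in FL HSC. There the background was 25.6% of all genes kept and 43.2% of the 5249 genes. The mean summed TPM of this list was lower in CD11b+CD48+SK cells (492 TPM) than in WT-MPP (625 TPM). Tfam, which packages mitochondrial DNA, was 1.29 above WT-MPP in CD11b+CD48+SK cells and 1.90 above BM HSC in FL HSC. In each of these comparisons with WT-MPP or BM HSC no gene of these lists was lower by at least 1 in CD11b+CD48+SK cells or FL HSC, except 2 assembly factors and 1 gene of mitochondrial DNA upkeep in CD11b+CD48+SK cells against BM HSC.

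**Figure D5:**
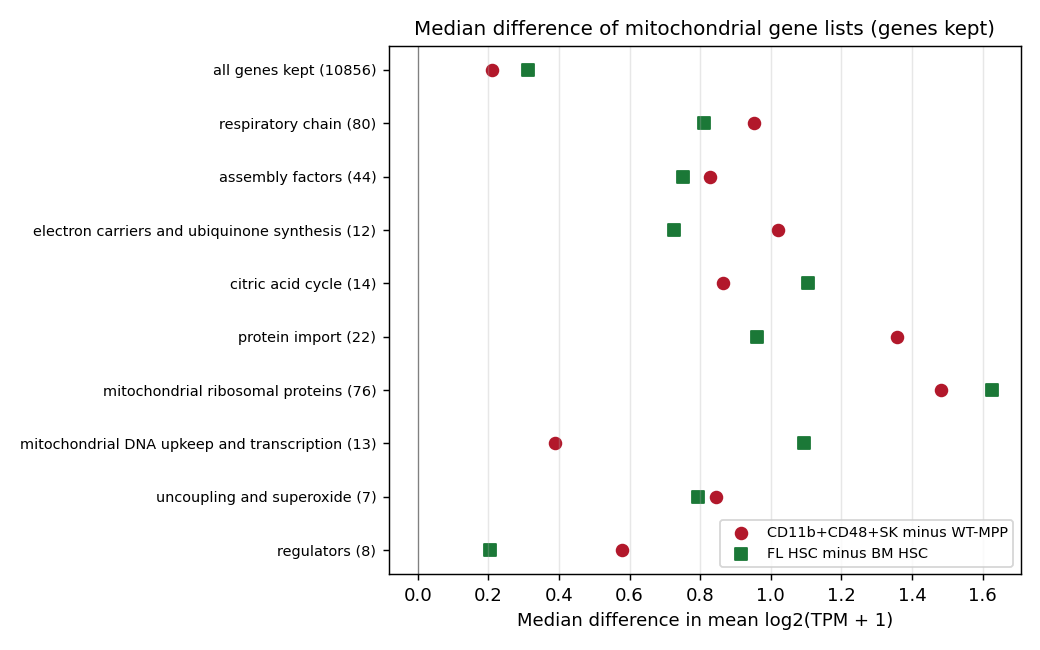
Median difference in mean log2(TPM + 1) of each mitochondrial gene list (number of genes kept in brackets) for CD11b+CD48+SK minus WT-MPP (circles) and FL HSC minus BM HSC (squares). The respiratory chain lies at 0.95 and 0.81, the mitochondrial ribosomal proteins at 1.48 and 1.63, and all genes kept at 0.21 and 0.31.

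Transcription factors and coactivators known to act on respiratory chain genes were mostly low. Of the 8 that were kept, 2 were higher in CD11b+CD48+SK cells against WT-MPP, near the background of 19%. Myc, which promotes growth, was 1.37 above WT-MPP and 2.01 above BM HSC, with a mean of 756 TPM in CD11b+CD48+SK cells, 468 TPM in BM HSC, 121 TPM in FL HSC and 552 TPM in WT-MPP. The populations with much respiratory chain transcript thus had the highest and the lowest Myc. Pprc1, a coactivator of the PGC-1 family, was 1.3 above WT-MPP and was detected in 36.2% of CD11b+CD48+SK cells. Nrf1, Gabpa and Yy1 had differences of 0.55, -0.15 and -0.06. Ppargc1a, the PGC-1 coactivator of muscle and brown fat, was at 0 in every CD11b+CD48+SK cell.

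Sequences upstream of the genes were looked at because the members moved together in part. RefSeq (GRCm38.p6) gave 73 promoters, from 250 bases before to 50 after the start, for 67 of the 80 members. The core of the NRF1 motif, GCGCA and GCGC with any 1 base between them, was present on either strand in 24.7% of member promoters and in 4.60% of all 32851 promoters. CCGGAAG, read by GABPA, was present in 21.9% and 8.86%, and AANATGGCG, read by YY1, in 16.4% and 2.38%. GGGCGG, read by SP1, was present in 38.4% and 35.7%, and TATAAA in 8.22% and 13.6%. NRF1, GABPA or YY1 letters were held by 38 of the 67 members. The members with NRF1 letters had a median difference of 1.13 from WT-MPP in CD11b+CD48+SK cells and those without had 0.96, and from BM HSC in FL HSC the values were 0.87 and 0.90. For GABPA letters the medians were 1.16 with and 0.97 without in the former comparison and 0.61 and 0.96 in the latter, and for YY1 letters 1.16 and 0.96, then 1.27 and 0.84. The direction of the split thus depended on the motif between FL HSC and BM HSC. A match of letters is not a bound site, and promoters of widely used genes are rich in G and C.

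Stretches are shown for Atp5h and Uqcrh, the most abundant members with a match to NRF1 and to GABPA in a stretch free of exons, and for Cox6b1 and Cox6b2, the main and the restricted form whose detection differed. They are written 5′ to 3′ on the strand of the gene, up to its first annotated base, with matched letters in capitals. The Cox6b stretches held none of the letters searched. They were chr11:115419963-115420127 for Atp5h, chr4:116075072-116075268 for Uqcrh, chr7:30626152-30626351 for Cox6b1 and chr7:4753095-4753225 for Cox6b2, all in GRCm38.p6 on the minus strand.
Atp5h: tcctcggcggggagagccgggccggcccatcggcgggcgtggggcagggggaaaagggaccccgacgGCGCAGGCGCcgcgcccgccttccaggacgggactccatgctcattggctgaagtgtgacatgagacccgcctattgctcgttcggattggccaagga
Uqcrh: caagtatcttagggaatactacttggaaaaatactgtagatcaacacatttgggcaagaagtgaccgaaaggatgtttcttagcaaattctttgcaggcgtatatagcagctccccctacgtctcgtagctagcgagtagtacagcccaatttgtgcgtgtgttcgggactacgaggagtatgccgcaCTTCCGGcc
Cox6b1: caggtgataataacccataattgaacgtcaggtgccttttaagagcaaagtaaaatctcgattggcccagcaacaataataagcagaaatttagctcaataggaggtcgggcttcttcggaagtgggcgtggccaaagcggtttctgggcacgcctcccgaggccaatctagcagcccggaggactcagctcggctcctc
Cox6b2: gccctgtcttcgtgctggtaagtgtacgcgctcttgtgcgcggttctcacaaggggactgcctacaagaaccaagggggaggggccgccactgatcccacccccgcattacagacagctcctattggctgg

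From cell to cell, the complexes were related to different degrees. Spearman's rho between the shares of TPM in complexes IV and V was 0.66 over 47 CD11b+CD48+SK cells, 0.53 over 41 WT-MPP, 0.18 over 36 BM HSC and 0.67 over 56 FL HSC. Between complexes I and III it was 0.49, 0.55, 0.63 and 0.58. Complex II was the least related, with values between -0.36 and 0.25 with every other complex in every population. Points of such a relation share the library and its detection, and parts of 1 sum are not independent. The share of the 80 genes followed the number of genes detected with a rho of 0.57 over CD11b+CD48+SK cells, 0.07 over WT-MPP, -0.47 over BM HSC and 0.23 over FL HSC. It followed the summed TPM of 12 cycling genes with a rho of 0.67 over CD11b+CD48+SK cells, -0.20 over WT-MPP, 0.32 over BM HSC and 0.18 over FL HSC.

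Genes of other states also differed between the populations. The 12 cycling genes had a median summed level of 1074 TPM in CD11b+CD48+SK cells (range 2.32 to 4180), 499 TPM in BM HSC (3.57 to 3406), 929 TPM in FL HSC (181 to 6590) and 329 TPM in WT-MPP (2.25 to 2835), with Mki67 at 0 in every WT-MPP and BM HSC. The mean summed level was higher in FL HSC (1853 TPM) than in CD11b+CD48+SK cells (1469 TPM), so the order of these populations differed between median and mean. The erythroid list, of which 8 of 10 genes were in the table, had medians of 720, 3667, 3491 and 5664 TPM in CD11b+CD48+SK cells, WT-MPP, BM HSC and FL HSC. Car2, a carbonic anhydrase, made up most of it in WT-MPP and BM HSC (means of 3920 and 3900 TPM) and was lower in FL HSC (1871 TPM) and CD11b+CD48+SK cells (910.0 TPM). The globin genes Hbb-b1, Hbb-b2 and Beta-s had means of 1426, 1805 and 1241 TPM in FL HSC and of at most 155 TPM in any other population. The myeloid granule list, with 8 of 8 genes in the table, had medians of 2038, 1483, 1252 and 1681 TPM, and the mast and basophil list, with 4 of 5 genes in the table, 223, 101, 351 and 120 TPM. Among defining markers, Epor was at 0 in every CD11b+CD48+SK cell, Klf1 in every WT-MPP and Hba-a1 in every BM HSC, Elane in every CD11b+CD48+SK cell and WT-MPP, S100a8 and S100a9 in every WT-MPP, BM HSC and FL HSC, and Ms4a2 in every WT-MPP and BM HSC. Ctsg and Mcpt8 were at 0 in every WT-MPP and FL HSC, and Ms4a3 in every WT-MPP and BM HSC. Elane was the only gene of the granule list at 0 in all CD11b+CD48+SK cells. The hepatocyte list, with 3 of 4 genes in the table, had a median of 0 TPM in every population, FL HSC included, the T-cell list (3 of 4) medians of 0.293 TPM in CD11b+CD48+SK cells and 0 TPM elsewhere, and the B-cell list (2 of 5) 88.3, 2.31, 193 and 187 TPM. Cd79a was at 0 in every CD11b+CD48+SK cell and WT-MPP, where the B-cell list rested on its other gene. Cd3g was at 0 in every CD11b+CD48+SK cell, BM HSC and FL HSC, and Cd3d in every WT-MPP, BM HSC and FL HSC. The share that these states had in the respiratory chain values was not tested.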

How the data were processed

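Each library was made by amplification of the cDNA of 1 sorted cell. Reads were aligned by the authors with HISAT2 (version 2.1.0), alignments were handled with SAMtools (version 0.1.19) and expression was estimated with StringTie (version 1.3.4) on mm10, per the paper and the submitters' processing notes, and the deposited values are TPM. The annotation and any use of strand are not given in the sources used here. Of 181 cell columns in the table, 1 has no sample and was not used. Read counts cannot be had from TPM, so depth per cell is unknown and genes detected (TPM of at least 1) stand in for it.

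The mean of log2(TPM + 1) was taken over the cells of a population. A gene was kept where 10% or more of the cells of any population had it at a TPM of at least 1, which left 10856 genes, among them all 80 members. With 1 sample per population no test was made and no p-value computed. A difference was called at 1 or more in mean log2(TPM + 1). No cell was left out, no 2 cells held identical values, and doublets were not sought since each library came from 1 sorted cell. The members and lists were chosen with earlier results of these data known. The genes named are core and paralogous subunits, the 5 members at each end of a comparison, the 10 most abundant members, and the 2 genes at each end of the other lists, of which not all are shown, and 1 member is counted but not reported here by name. Exon overlaps were read from the GENCODE annotation of GRCm38 for 77 members, 26 of which overlap another gene, and promoters from RefSeq (GRCm38.p6). The promoters of Atp5a1, Cox4i1, Cox4i2, Cox6a2, Cox6c, Ndufa2, Ndufb9, Ndufs1, Sdhc, Uqcrb, Uqcrc2 and Uqcrq were not analysed here. Python 3.11.15 was used, with the packages numpy 2.4.6, pandas 2.3.3, scipy 1.17.1 and, for plots, matplotlib 3.10.9. The scripts were tested on data simulated from WT-MPP cells. Other pseudocounts, averages, filters, scalings of cells and ranges of genes detected were tried. The filter on genes found in 90% or more of the cells of each population and the ratio of complex IV to complex III were added after seeing the data.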

Additional observations from a re-analysis of the deposited data

How the results depend on the processing

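Averaging and scaling of cells moved counts and medians most, and the cause was not tested. With a pseudocount of 0.1 the median difference was 1.06 (CD11b+CD48+SK against WT-MPP), 0.97 (FL HSC against BM HSC) and 1.08 (FL HSC against WT-MPP), and the number past the limit was 10 (CD11b+CD48+SK against FL HSC). Of all genes kept, 8.70% were higher and 32.7% lower in that last comparison. With a pseudocount of 10 the median difference was 0.73 (CD11b+CD48+SK against WT-MPP), 0.61 (CD11b+CD48+SK against BM HSC), 0.60 (FL HSC against BM HSC) and 0.69 (FL HSC against WT-MPP), and the number past the limit was 24 (CD11b+CD48+SK against WT-MPP), 1 (CD11b+CD48+SK against FL HSC), 15 (FL HSC against BM HSC), 20 (FL HSC against WT-MPP) and 2 (WT-MPP against BM HSC). In the order of these counts, 6.95%, 1.65%, 9.61%, 14.3% and 0.691% of all genes kept were higher and 1.58%, 7.12%, 1.81%, 1.10% and 3.41% lower. With log2 of the mean TPM + 1 the median difference was 0.30 (CD11b+CD48+SK against WT-MPP), 0.40 (CD11b+CD48+SK against BM HSC), 0.12 (CD11b+CD48+SK against FL HSC), 0.28 (FL HSC against BM HSC), 0.19 (FL HSC against WT-MPP) and 0.080 (WT-MPP against BM HSC), and the number past the limit was 4 (CD11b+CD48+SK against WT-MPP), 7 (CD11b+CD48+SK against BM HSC), 3 (FL HSC against BM HSC), 4 (FL HSC against WT-MPP) and 2 (WT-MPP against BM HSC). The shares of all genes kept, in this order, were 10.3%, 9.78%, 11.8%, 14.8% and 11.7% higher and 24.1%, 27.7%, 19.3%, 17.8% and 15.6% lower. With cells scaled by the median ratio the median difference was -0.0035 (CD11b+CD48+SK against WT-MPP), 0.22 (CD11b+CD48+SK against BM HSC), 0.25 (CD11b+CD48+SK against FL HSC), 0.019 (FL HSC against BM HSC), -0.23 (FL HSC against WT-MPP) and 0.26 (WT-MPP against BM HSC), and the number past the limit was 8 (CD11b+CD48+SK against WT-MPP), 7 (CD11b+CD48+SK against BM HSC), 3 (CD11b+CD48+SK against FL HSC), 9 (FL HSC against BM HSC) and 18 (FL HSC against WT-MPP). Of the 18, 8 were lower. This scaling changed the sign of the median for CD11b+CD48+SK (-0.0035) and FL HSC (-0.23) against WT-MPP. It also changed the small one of WT-MPP against BM HSC. The shares of all genes kept, in the order of the counts, were 10.5%, 9.51%, 4.90%, 16.4% and 20.4% higher and 12.8%, 16.8%, 17.3%, 10.6% and 9.68% lower. In cells with 3500 to 5500 genes the median difference was 0.61 (CD11b+CD48+SK against WT-MPP), 0.61 (FL HSC against WT-MPP) and 0.21 (WT-MPP against BM HSC), and the number past the limit was 17 (CD11b+CD48+SK against WT-MPP), 8 (CD11b+CD48+SK against FL HSC) and 17 (FL HSC against WT-MPP). Among genes in 90% or more of the cells of each population the median difference was 0.80 (CD11b+CD48+SK against WT-MPP), 0.69 (FL HSC against BM HSC) and 0.77 (FL HSC against WT-MPP), and the number past the limit was 21 (CD11b+CD48+SK against WT-MPP), 20 (CD11b+CD48+SK against BM HSC), 0 (CD11b+CD48+SK against FL HSC), 13 (FL HSC against BM HSC), 21 (FL HSC against WT-MPP) and 1 (WT-MPP against BM HSC). These counts are out of 57 members. Of the 710 genes, in the same order, 29.4%, 20%, 4.51%, 23.4%, 34.2% and 2.11% were higher and 3.24%, 5.49%, 9.86%, 3.24%, 1.97% and 6.48% lower. The 13 were 22.8% of the 57, near the 23.4% of the 710. All other medians of the members moved by less than 0.1 and all other counts by less than 1.5 times, those without a filter, with a filter at 50% of cells and without the 20 highest genes included. The filter at 50% of cells did move the median of all genes kept, from 0.56 to 1.18 for FL HSC against WT-MPP. The shares of TPM, the Atp5g2 shares and the ratios of complex IV to complex III moved by less than 1 SD over cells in each population. This bound is weak, since the WT-MPP share was 3.55% ± 0.922 against 3.26% in BM HSC. The factors of the median-ratio scaling, taken over genes above 0 in the cell, had medians of 1.10 in CD11b+CD48+SK cells, 0.979 in BM HSC, 1.21 in FL HSC and 0.919 in WT-MPP, with lowest cells at 0.143, 0.0277, 0.859 and 0.0377. Of 147 member differences past the limit, 15 stayed so with log2 of the mean TPM + 1 and 41 with the median-ratio scaling. With a pseudocount of 0.1 all did. Filters move no value but are in the 894 of 1248 that stayed over 9 settings. Another 338 no longer passed the limit and 16 changed sign. With log2 of the mean TPM + 1 these were Atp5s at -0.11 (CD11b+CD48+SK against WT-MPP), Ndufa5 at -0.14 (CD11b+CD48+SK against BM HSC) and -0.27 (FL HSC against BM HSC), and Cox5a at -0.021 (FL HSC against WT-MPP). With the median-ratio scaling they were Ndufa4 at -0.017 (CD11b+CD48+SK against WT-MPP) and, in FL HSC against WT-MPP, Atp5a1 at -0.21, Atp5c1 at -0.12, Atp5f1 at -0.039, Atp5g3 at -0.24, Cox7a2l at -0.24, Ndufa7 at -0.10, Ndufa8 at -0.091, Sdhb at -0.14, Uqcr10 at -0.20 and Uqcrc1 at -0.25. In cells with 3500 to 5500 genes it was Ndufs3 at 0.24 (WT-MPP against BM HSC). No paired analysis was possible because the results come from no test and the numbers of the cells only name them. With 1 sample per population no value has an error between animals, and TPM without read counts sets no limit of detection.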
